A study of Bos taurus with 40 samples.

Results

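Extra-embryonic tissue of 10 bovine conceptuses made by somatic cell nuclear transfer (SCNT) was compared with that of 10 conceptuses made by in vitro fertilization (IVP). These are 20 of the 40 arrays analysed here, and the arrays were chosen by the reproduction mode in their labels. Each array measured 1 conceptus on Day 18 of gestation. The SCNT group is named SCNT High. Its nuclei came from a single line of ear skin fibroblasts, 5538, grown from a biopsy of an adult Holstein heifer and placed in enucleated oocytes. The IVP embryos came from the same batches of oocytes, were fertilised with the sperm of one Holstein bull, and were cultured in the same way up to transfer. In both groups several blastocysts were placed in each recipient cow, the conceptuses were flushed from the uterus, and the embryonic disc was cut away. Conceptuses may therefore share a recipient, and the sex and the recipient of each conceptus were not used here. All SCNT High conceptuses carry the nuclear genome of the same cow, so nuclear transfer, the genotype of the donor and its sex cannot be told apart in this pair of groups. Per the study, every SCNT conceptus was female, while only part of the IVP conceptuses were. Where separate recipients are not ensured, the p-values measure only the spread between these arrays.

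By Day 18 a bovine conceptus is normally a long thread of trophoblast lined by endoderm. Trophoblast is the outer epithelium that meets the uterus and later forms most of the placenta, and endoderm is the inner layer that forms the yolk sac. Elongation needs dividing and moving cells, secreted proteins and a matrix for cells to hold on to. The study classed some conceptuses of both groups as shorter and delayed in elongation, and some discs of SCNT High, but none of IVP, as abnormal. These classes were not used here, so the groups are not matched for stage. In bulk tissue, fewer cells of a type and less RNA per cell cannot be told apart. The arrays were nylon membranes spotted with bovine cDNA, each spot an expressed sequence tag from a placental or extra-embryonic library, and most tags carry only an accession in the files. Gene names were available for 16 tags through the primer table of the study, which pairs an accession with a gene, and 15 of these symbols are also in the RefSeq gene table of cattle. Of the marker lists for tissue layers only PLIN2, FN1 and APLP2 have a named tag, and of the lists for Wnt signalling, sugar transfer and chromatin only WNT5B, ALG5, ASF1A and EED. The study had picked the 14 genes of the role groups below from these arrays for a follow-up, so their differences are not independent evidence of a direction. With another test on these arrays, the study listed genes that differed between SCNT groups and IVP. After its PCR it kept a higher WNT5B in SCNT High relative to IVP. Some of the picked genes, listed for other pairs of groups, were not borne out by that PCR. How C5orf13 and PGAM5 were picked is not given in the sources used here.

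The PCR primers that the study designed are shown for WNT5B, ALG5, ASF1A and EED. These are the 4 named genes whose smallest difference among the 3 sessions described below lay farthest from 0. The primers are those the study lists beside each tag and its gene name. They are printed 5′ to 3′ in lower case, and they are primers of a separate PCR assay, not the spotted cDNA.
WNT5B forward: tggactacggctaccgcttc
WNT5B reverse: tttgcaggttcatgagcacg
ALG5 forward: tgccacagcttcatcgacat
ALG5 reverse: ggcaaccgtttttcttcattg
ASF1A forward: gagctcgggtacagccaatc
ASF1A reverse: gcggcgacttgagaaactttt
EED forward: caaatgcacaacgctgactca
EED reverse: tttatcgcagtcggtcccag

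All levels below are the log2 of the mean brightness of a spot, minus the mean of that array over its 10184 cDNA probes. A level of 0 is thus the mean of the array, and a difference of 1 is a change of signal by a factor of 2. The median spot signal of the 20 arrays lay between 38.4 and 135 brightness units and was 4.85 to 7.69 times the local background. The cDNA spots that outshone the water spot of their own array numbered 8010 to 9835. The date recorded with each array was used to form 3 sessions, with a new session wherever dates lay more than a week apart. Session 1 held 7 IVP and 3 SCNT High arrays, session 2 held 3 of each, and session 3 held the other 4 SCNT High arrays and no IVP array. Only the arrays of session 3 have spots marked as poor by the software, 2067 to 2847 of the cDNA spots per array. Within SCNT High, limma called 8 probes between session 3 and the other sessions at an adjusted p under 0.10, and 12.1% of the probes had an unadjusted p under 0.05.

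The 3 IVP arrays of session 2 (BF188, BF189 and BF190) stood apart from the other 7 IVP arrays. Between these IVP sessions limma called 247 probes, 83 higher and 164 lower in session 2, and 14.0% of the probes had an unadjusted p under 0.05. The clearest was AW461912, a tag without a gene name. Its level on the 3 arrays was 1.24, 1.44 and 2.40, against 6.51 to 7.63 on the 7 IVP arrays of session 1 and 5.90 to 7.91 on the SCNT High arrays. AW461876 followed the same pattern, with -1.70 to -0.82 on the 3 arrays, 2.28 to 5.00 on the other IVP arrays and 2.93 to 5.37 in SCNT High. BF039937 ran the other way, from 1.60 to 3.57 on the 3 arrays, -2.08 to -0.39 on the other IVP arrays and -2.29 to -0.33 in SCNT High. These 3 tags were chosen after their values were seen. On each of them the 3 arrays lay outside the ranges of both other sets. The SCNT High arrays of session 2 did not share the shift, with 7.0 to 7.70 on AW461912, while the 11 SCNT arrays of all lines in that session spread from 1.88 to 7.71 with a median of 7.23. Some counts and named genes are given below both with and without the 3 arrays. Other differences of SCNT High minus IVP moved too. Without the 3 arrays WNT5B went from 1.02 to 0.86, EIF2S3 from -0.65 to -0.55 and LHFPL2 from -0.64 to -0.51. DFFA went from -0.90 to -1.01 and the GAPDH control from 0.43 to 0.55, both farther from 0.

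**Figure D1:**
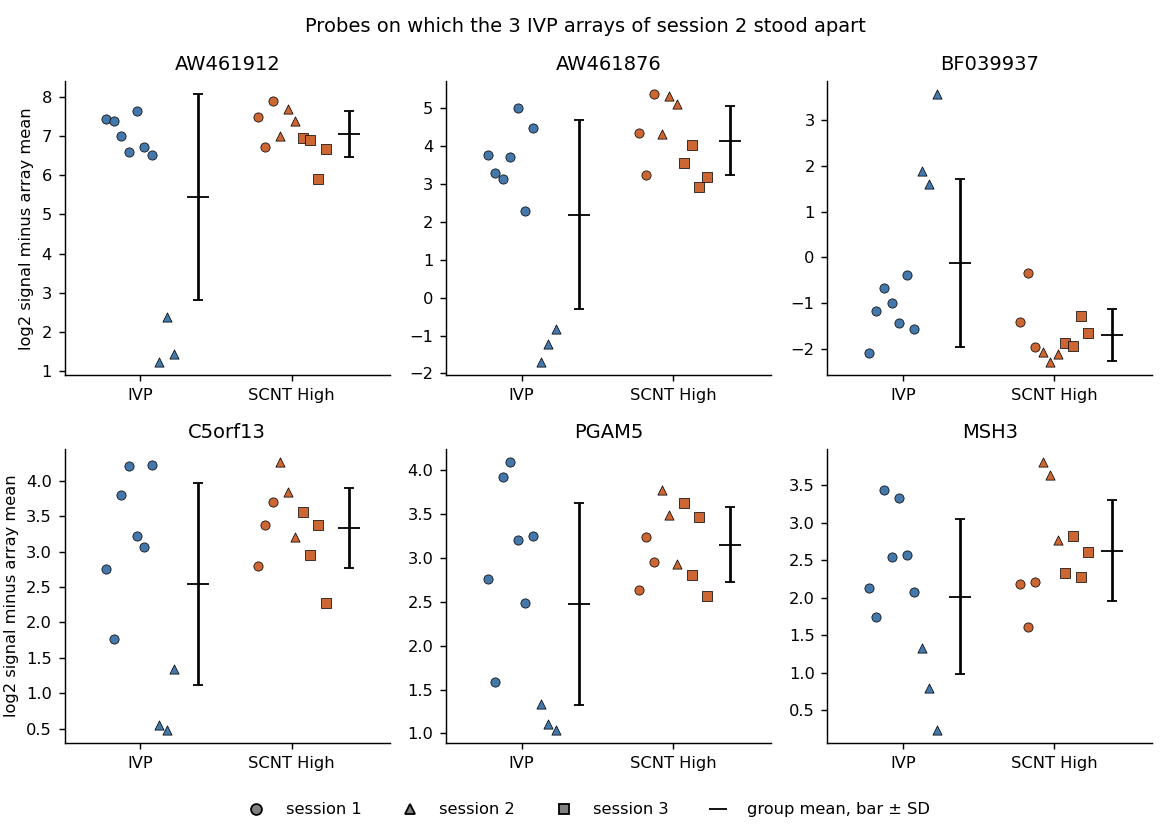
Level (log2 signal minus array mean) of 3 tags without a gene name and of C5orf13, PGAM5 and MSH3 on each of the 10 IVP and 10 SCNT High arrays. Arrays are in order of their names from left to right, the marker gives the session, and the bar is the group mean ± SD. The 3 IVP arrays of session 2 (triangles) lie apart from the other IVP arrays on AW461912, AW461876 and BF039937, and are the lowest IVP arrays of C5orf13, PGAM5 and MSH3.

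Across all probes, no difference between SCNT High and IVP passed the test. limma on the 20 arrays called 0 of 10184 probes at a Benjamini-Hochberg adjusted p under 0.10, a share of 0%, and the smallest adjusted p was 0.20. With an unadjusted p under 0.05 there were 1119 probes, 11.0% of all. Of these, 617 had the higher mean in SCNT High (6.06% of all probes) and 502 the lower (4.93%). A fit with array weights, which gives less weight to arrays far from their group, called 180 probes, 87 higher and 93 lower. In SCNT High the highest weights, 1.99, 1.81 and 1.45, were those of BC273, BC272 and BC279 from session 3, which holds no IVP array. BC244 and BC245 of session 2 had 0.53 and 0.37. How far these calls rest on session 3 was not tested. Leaving out the SCNT High array BC242 alone gave 19 calls, 4 higher and 15 lower, 18 of which were also called with array weights. When each array was centred on its median instead of its mean, 463 of 1103 probes with a p under 0.05 were higher, 42.0% in place of 55.1%. The balance also turned without the 3 IVP arrays of session 2, to 459 higher and 544 lower of 1003, and without BC245 and BF188, to 616 higher and 632 lower. Without session 3, which holds no IVP array, 592 probes had a p under 0.05, 303 higher and 289 lower, and 722 with session as a block.

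The differences were small. Their SD across probes was 0.29 on the log2 scale, with a median of 0.01, a 5th percentile of -0.48 and a 95th percentile of 0.43. The difference exceeded 1 in either direction for 54 probes, or 0.530%, with 22 higher and 32 lower in SCNT High. Of the 54, 43 had a difference over 1 in the same direction within session 2, and 8 had one within session 1. Differences also spread more in session 2, with an SD of 0.58 against 0.29 in session 1. Without the 3 IVP arrays of session 2, 44 probes were beyond 1, and 22 of these were among the 54. Not a single probe had every SCNT High array above, or every one below, all IVP arrays. A pair of SCNT High arrays had a median Pearson r of 0.929 over the probes, a pair of IVP arrays one of 0.930, and a pair across the groups one of 0.922.

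**Figure D2:**
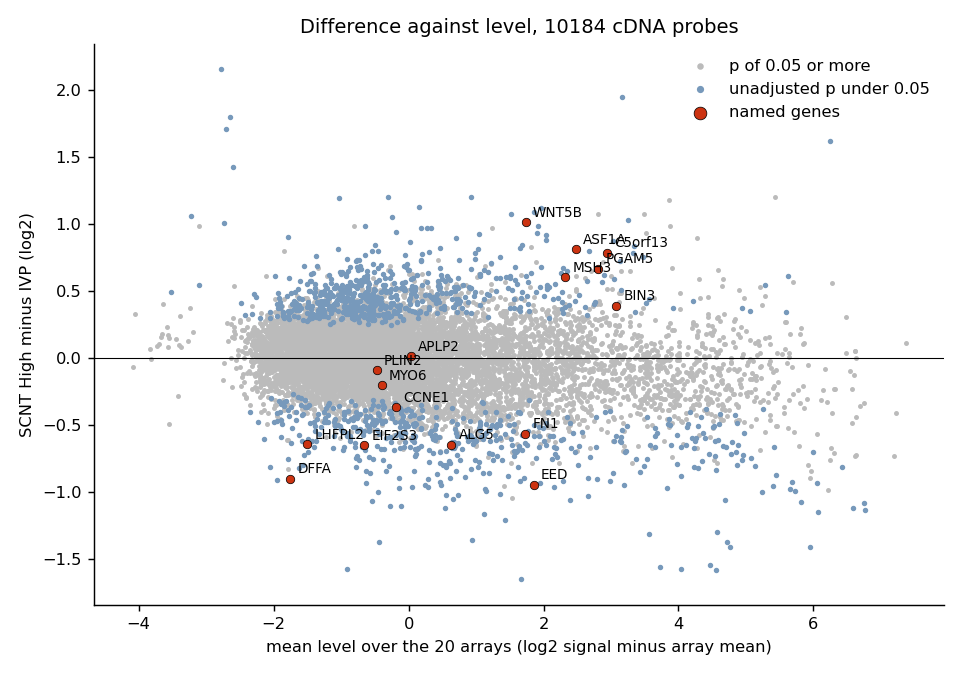
Difference of the group means (SCNT High minus IVP, log2) against the mean level over the 20 arrays, for 10184 cDNA probes. Probes with an unadjusted p under 0.05 are blue, and the 16 named genes are red. The named genes with the greatest distance from 0 are WNT5B at 1.02 and EED at -0.94.

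Among the 8 named genes of cell morphology or development, WNT5B and ALG5 had the smallest p of the 16 named genes. WNT5B encodes a secreted Wnt ligand that acts on cell polarity and movement. On the IVP arrays its level had a lowest value of 0.45, a median of 1.20 and a highest value of 2.18, and on the SCNT High arrays these were 1.42, 2.28 and 2.79. Each SCNT High array exceeded the mean of IVP and 7 exceeded every IVP array, while 6 IVP arrays lay below every SCNT High array. The SCNT High mean was 1.02 ± 0.23 (SE) above that of IVP, a factor of 2.02, with p = 0.000181 and an adjusted p of 0.20 in limma. Within session 1 the difference was 0.81 and within session 2 it was 1.33, and the SCNT High arrays of session 3 averaged 1.09 above all IVP arrays. The WNT5B spot was marked poor on 3 of those 4 arrays, and without marked spots the difference was 0.99 (p = 0.00137 in limma).

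ALG5 encodes the enzyme that loads glucose onto dolichol phosphate, a donor for the sugar chains that are attached to new proteins in the endoplasmic reticulum. Its level was 0.44 at the lowest, 0.99 at the median and 1.32 at the highest in IVP, and -0.06, 0.21 and 0.83 in SCNT High. Every SCNT High array was below the IVP mean, 6 were below every IVP array, and 7 IVP arrays were above every SCNT High array. The lowest IVP array was BF188, from session 2. The difference was -0.64 ± 0.14 (SE), with p = 0.000169 and an adjusted p of 0.20 in limma. It was -0.46 in session 1 and -0.73 in session 2, and -0.72 for session 3 against all IVP arrays. WNT5B and ALG5 were both called with array weights (adjusted p = 0.0567 for each) and both without BC242 (adjusted p = 0.0979).

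The other 6 genes of this group were not called, and 1 of them had an unadjusted p under 0.05. In the group as a whole 2 means were higher and 6 lower in SCNT High, with a median difference of -0.28 against 0.01 over all probes, and 3 of 8 had a p under 0.05, beside the 11.0% of all probes. LHFPL2, a tetraspan membrane protein, ranged over -2.18, -1.35 and 0.20 (lowest, median, highest) in IVP and -2.70, -1.86 and -1.16 in SCNT High. It is a dim probe, brighter than water on 9 of 10 IVP and 5 of 10 SCNT High arrays. Its difference was -0.64 ± 0.23 (SE, p = 0.0119 in limma), and it was -0.28 in session 1 and -1.29 in session 2. CCNE1, the cyclin that drives entry into the phase of DNA copying, had a difference of -0.36 ± 0.20 (SE). It was -0.57 in session 1, -0.58 in session 2 and -0.14 for session 3, and -0.24 overall without the IVP array BF190. MYO6, a motor that moves along actin in microvilli, had a difference of -0.20 ± 0.17 (SE), and its sign turned within session 2, where it was 0.10.

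The markers of the 2 tissue layers gave no call. FN1, or fibronectin, a matrix protein placed in the endoderm by in situ hybridisation in the study, was bright in both groups. Its level was 1.24, 1.94 and 2.63 (lowest, median, highest) in IVP and -1.29, 1.71 and 2.38 in SCNT High. One SCNT High array, BC245, held the lowest value and set much of the difference of -0.56 ± 0.35 (SE, p = 0.117 in limma), which was -0.26 without that array. APLP2, a relative of the amyloid precursor protein and the other endoderm transcript, averaged 0.02 in IVP and 0.04 in SCNT High. It too had its lowest SCNT High value on BC245, at -1.58. PLIN2, which coats lipid droplets and marks trophoblast here, averaged -0.43 in IVP and -0.52 in SCNT High, a difference of -0.09 ± 0.25 (SE). The signs of the APLP2 and PLIN2 differences turned under several settings. The single spot of POU5F1, a gene of the pluripotent epiblast that lies in the removed disc, was at a median of 0.03 in IVP and -0.40 in SCNT High, and it was brighter than water on 9 and 10 arrays.

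**Figure D3:**
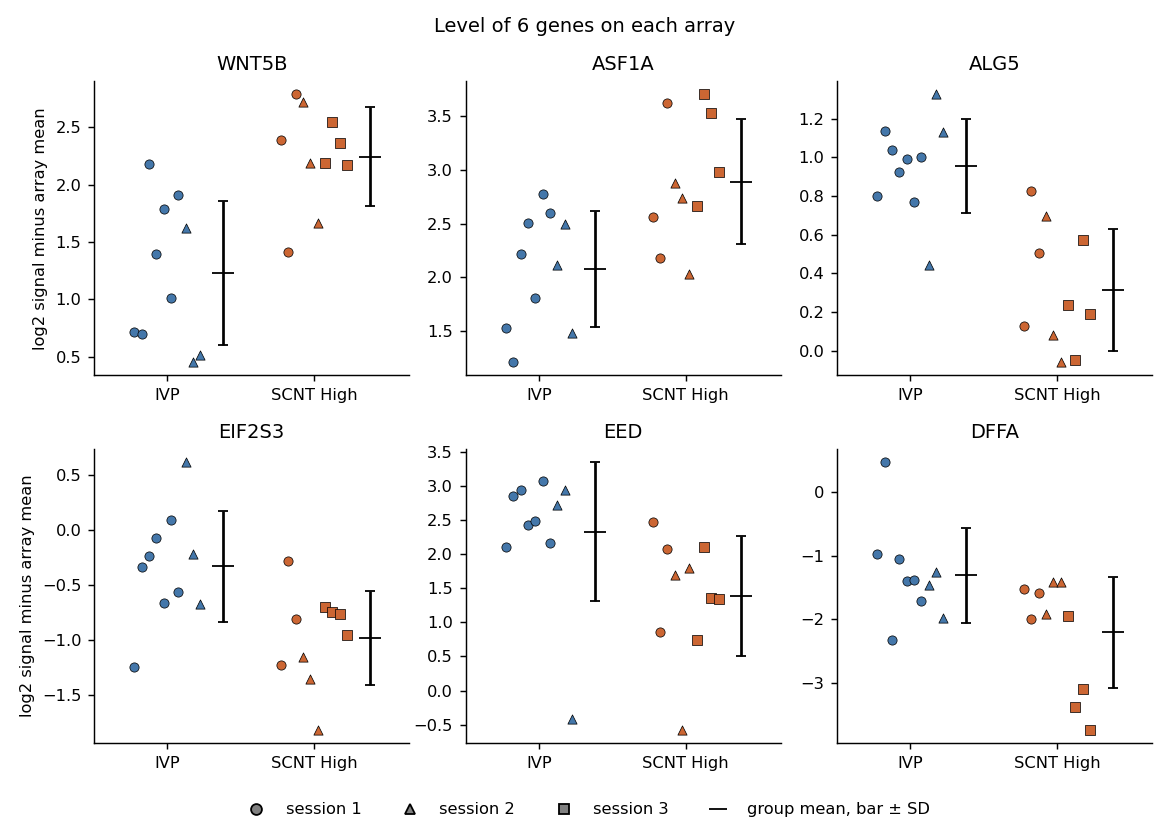
Level (log2 signal minus array mean) of 6 named genes on each of the 10 IVP and 10 SCNT High arrays. Arrays are in order of their names from left to right, the marker gives the session, and the bar is the group mean ± SD. The groups overlap for every gene, with 7 SCNT High arrays of WNT5B above all IVP arrays and 6 of ALG5 below them, while the low DFFA values come from session 3.

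Of the 6 named genes of chromatin, DNA repair and the expression machinery, 4 had an unadjusted p under 0.05 and none was called. Over all probes the share with such a p was 11.0%, and the study had picked these genes from the same arrays. Their differences were positive for 3 and negative for 3, with a median of -0.13. ASF1A, a histone chaperone that hands histones H3 and H4 to the factors that build nucleosomes, had levels of 1.21, 2.16 and 2.78 (lowest, median, highest) in IVP and 2.03, 2.81 and 3.70 in SCNT High. The 5 highest arrays of all were SCNT High arrays, and 4 IVP arrays were below every SCNT High array. The difference was 0.81 ± 0.24 (SE, p = 0.00217, adjusted p = 0.25 in limma). In session 1 it was 0.70, in session 2 it was 0.52, and session 3 averaged 1.14 above all IVP arrays. With array weights, which were highest in SCNT High for arrays of session 3, ASF1A was called (adjusted p = 0.0945). Its spot was marked poor on 3 of the 4 arrays of session 3, and without marked spots the difference was 0.59 (p = 0.0262).

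EED is a core subunit of the Polycomb complex that methylates histone H3 and is needed for silencing of the X chromosome in trophoblast. Its level was -0.41, 2.60 and 3.07 (lowest, median, highest) in IVP, and -0.58, 1.52 and 2.48 in SCNT High. Each group had 1 array far below the others, BF190 at -0.41 in IVP and BC245 at -0.58 in SCNT High, both from session 2. Apart from them, 9 IVP arrays lay between 2.10 and 3.07. The difference was -0.94 ± 0.38 (SE, p = 0.0210, adjusted p = 0.372 in limma), and it was -1.19 without the 3 IVP arrays of session 2 (p = 0.00118). It was -0.78 in session 1 and -0.78 in session 2. The EED spot was marked poor on all 4 arrays of session 3, and without marked spots p was 0.0587 at a difference of -0.94.

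EIF2S3 encodes the gamma subunit of the factor that brings the first tRNA to the ribosome, and its gene lies on the X chromosome. It had levels of -1.25, -0.28 and 0.61 (lowest, median, highest) in IVP and -1.82, -0.88 and -0.28 in SCNT High. The difference was -0.65 ± 0.20 (SE, p = 0.00406, adjusted p = 0.280 in limma), with -0.34 in session 1 and -1.34 in session 2. In SCNT High 9 arrays were below the IVP mean. DFFA, the inhibitor of the nuclease that cuts DNA in dying cells, was dim: 8 IVP and 4 SCNT High arrays were brighter than water. Its difference of -0.90 ± 0.33 (SE, p = 0.0117 in limma) was widest for session 3, where SCNT High levels ran from -3.74 to -1.96. It was -0.51 in session 1 and -0.01 in session 2, and -0.34 without session 3 (p = 0.269). Without spots marked poor or empty the difference was -0.56 (p = 0.069 in limma), no longer under 0.05.

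BIN3, MSH3, C5orf13 and PGAM5 all had a higher mean in SCNT High, and without the 3 IVP arrays of session 2 that difference was 0.11 or less for all 4. BIN3 binds curved membranes, MSH3 recognises loops in mismatched DNA, and PGAM5 is a phosphatase of mitochondria. C5orf13 had a difference of 0.79 ± 0.43 (SE), which was -0.00336 in session 1, 2.97 in session 2 and 0.04 without the 3 arrays. Its level on those arrays was 0.49 to 1.35, against 1.76 to 4.22 on the other IVP arrays and 2.27 to 4.26 in SCNT High. MSH3 had a difference of 0.61 ± 0.35 (SE), which was -0.54 in session 1, 2.62 in session 2 and 0.08 without the 3 arrays. For PGAM5 the difference was 0.67 ± 0.35 (SE), and 0.11 without them. BIN3 had 0.39 ± 0.24 (SE), and 0.06 without them. None of the 4 had an unadjusted p under 0.05 on the 20 arrays.

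The probes with the smallest p were, apart from WNT5B and ALG5, tags with an accession only. Of the 8 higher and 8 lower probes with the smallest p among those brighter than water on at least 10 of the 20 arrays, 14 had no gene name, and all 16 had an adjusted p of 0.20. As p chose these probes, their values are a description. BF041938 had the smallest p of all. It ran from -0.35 to 0.32 in IVP, with a median of 0.17, and from -1.24 to 0.12 in SCNT High, with a median of -0.73. That is a difference of -0.80, with 8 SCNT High arrays below every IVP array. CN433212, a bright tag, had the widest difference of the lower probes. It ran from 2.54 to 4.09 in IVP and from 1.19 to 3.31 in SCNT High, a difference of -1.03. BF043054 had 9 IVP arrays above every SCNT High array and a difference of -0.75. Among the higher tags, AW465147 had 9 SCNT High arrays above every IVP array, with -0.91 to 0.26 in IVP and -0.01 to 0.92 in SCNT High. BM362819 had 8, with -0.66 to 0.07 in IVP and -0.20 to 0.96 in SCNT High. CR550815 differed by 0.97, and by 0.50 without session 3, whose arrays averaged 1.67 above IVP.

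AW462653 was named for having the widest difference of all, 2.16 ± 0.74 (SE, adjusted p = 0.313 in limma). All 10 IVP arrays were below water, and the SCNT High arrays above water were the 4 of session 3, with a mean of 1.26. Within session 1 its difference was 0.43 and within session 2 it was 0.12. A structural variance model gives each probe a variance effect shared by both groups, plus a group offset common to all probes. It called AW462653 alone (adjusted p = 0.0311), with an SE of 0.36 in place of 0.74. Session and group cannot be told apart for this probe, as session 3 holds no IVP array. AW464485, chosen in the same way, had the widest difference in the other direction, with -0.77 to 2.68 against 1.76 to 4.61 in IVP. Its difference was -1.65 ± 0.39 (SE, p = 0.000301, adjusted p = 0.20 in limma), with -0.45 in session 1 and -2.06 in session 2.

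Sessions 1 and 2 share no array, so each holds a comparison of its own. Over all 10184 probes, 55.0% had the same direction in both. Of the 457 probes with a p under 0.05 in session 1, 274 or 60.0% had the same direction in session 2. From the other side, 311 of 544, or 57.2%, had it in session 1. Both sessions gave a p under 0.05 in the same direction for 24 of the 457 probes, 14 higher and 10 lower. Beside this, 311 of all 10184 probes had such a p in session 2 in the direction of session 1, and 544 had one in either direction. WNT5B, BF041938, BF042838, AW463522 and AW465147 were among the 24. They had been picked by a p on arrays that include both sessions, so their place there is not independent evidence. Within session 2 alone, limma called 51 probes, of which 22 had the same direction in session 1 and 0 a p under 0.05 there. The 2 sets of differences had a Pearson r of 0.09 and a Spearman rho of 0.12 across probes, which share the hybridisations of their session and are not independent replicates. Their SD was 0.29 in session 1 and 0.58 in session 2.

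**Figure D4:**
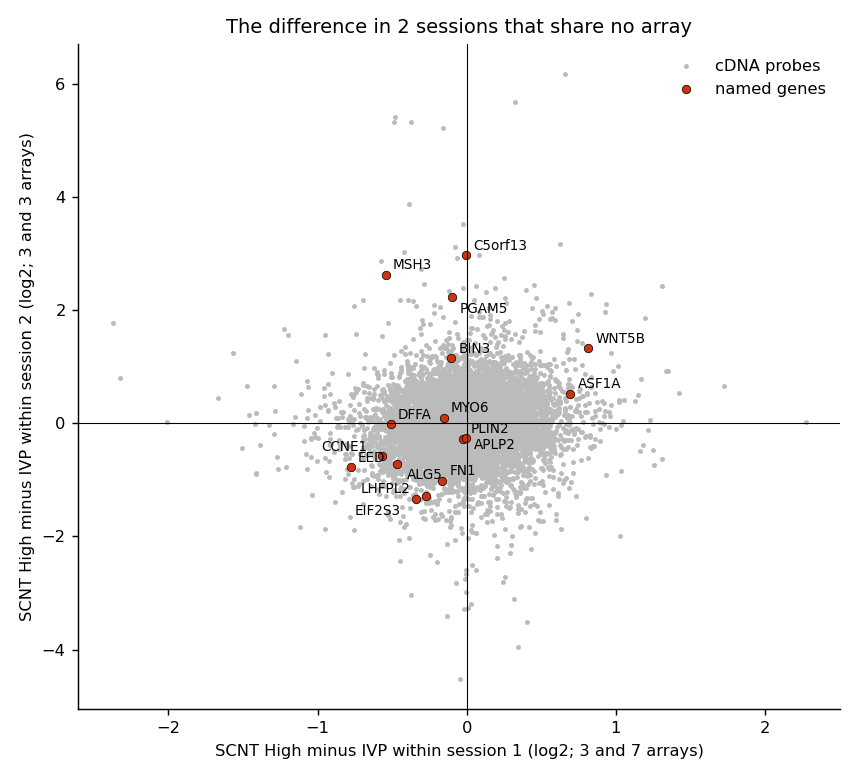
Difference of SCNT High minus IVP (log2) within session 2 against that within session 1, for 10184 cDNA probes, with the 16 named genes in red. WNT5B and ASF1A are above 0 on both axes, ALG5, EED, EIF2S3, CCNE1, LHFPL2 and FN1 are below 0 on both, and C5orf13, PGAM5 and MSH3 are above 2 in session 2 and at or below 0 in session 1.

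The control spots of GAPDH, an enzyme of glycolysis, and of actin, the main protein of the cell skeleton, were higher in SCNT High. GAPDH, as the mean of its 10 spots, ran from 2.32 to 3.48 in IVP with a median of 2.94, and from 3.01 to 4.38 in SCNT High with a median of 3.26. Each of the 10 SCNT High arrays exceeded the mean of IVP, and 1 exceeded every IVP array. The difference was 0.43 (permutation test over the arrays, two-sided, 100000 resamples, p = 0.00324, and 0.00648 after adjustment over the 2 controls). Actin ran from 2.28 to 2.79 in IVP and from 2.37 to 3.48 in SCNT High, where 7 arrays were above every IVP array. Its difference was 0.34 (the same permutation test, p = 0.0152, and 0.0152 after adjustment). Both controls were also higher with median centring, quantile normalization and normexp background correction, and by 0.41 and 0.40 in session 1 and 0.41 and 0.36 in session 2. Without the 3 IVP arrays of session 2 the actin difference was 0.28 (exact permutation test, p = 0.0632), which missed the threshold of 0.05 used for these spots. The water spot lay in the same direction, with a mean of -1.92 ± 0.27 (SD, n = 10) in IVP and -1.64 ± 0.31 (SD, n = 10) in SCNT High, of which session 3 had the highest mean, -1.38. Its part in the result was not tested. As the study used both genes as references in its PCR, the probes were also centred on these spots. The median of all differences then moved from 0.01 to -0.37, and limma called 2694 probes, 2692 of them lower in SCNT High. On that scale WNT5B was 0.63 above IVP and ASF1A 0.43 above, and APLP2 turned to -0.36.

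**Figure D5:**
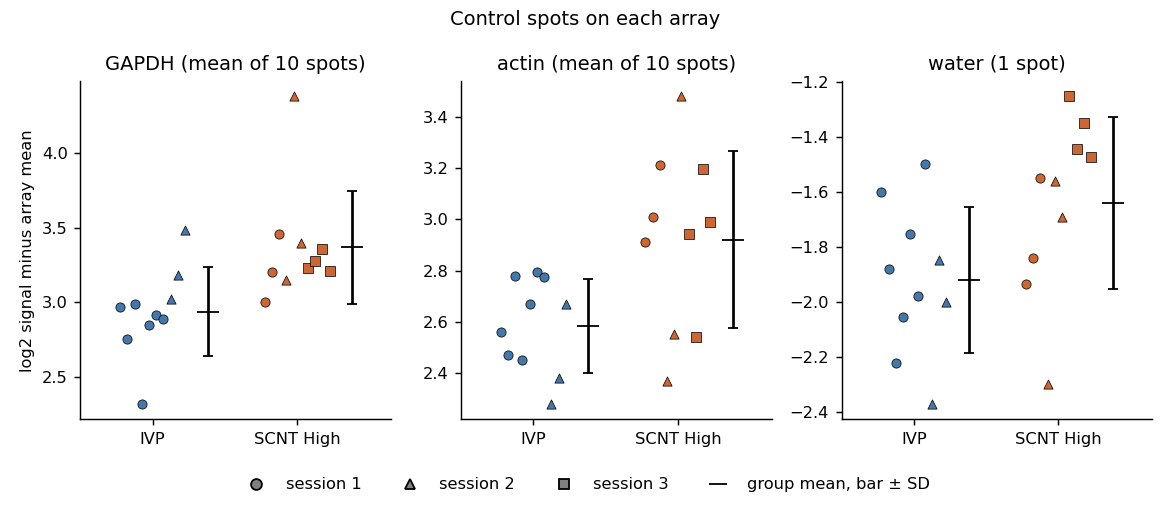
Level (log2 signal minus array mean) of the GAPDH, actin and water control spots on each of the 10 IVP and 10 SCNT High arrays. Arrays are in order of their names from left to right, the marker gives the session, and the bar is the group mean ± SD. GAPDH lies at 3.01 or above on all SCNT High arrays and actin at 2.91 or above on 7 of them, all 7 above the IVP arrays.

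The direction of the small differences went with the brightness of the probe. The probes were split by mean level into 4 sets of 2546. In the dimmest set, 125 were higher and 65 lower in SCNT High with a p under 0.05, and in the next set 219 and 84. The brightest set had the opposite balance, 123 higher and 223 lower. The median difference went from 0.06 in the dimmest set to -0.08 in the brightest. By the library of the tags, 11.4% of the 6885 AW and BF tags, 10.5% of the 951 BM tags and 10.2% of the 2250 CR, CN and CV tags had a p under 0.05. Among the tags with such a p, 80 of 100 BM tags were higher in SCNT High. The same held for 403 of 783 AW and BF tags and 130 of 229 CR, CN and CV tags. Over all probes it was 617 of 1119, a balance that turned with median centring, as given above. The CR, CN and CV tags were brighter than the rest, with a median level of 1.31 in IVP, against -0.86 for the AW and BF tags. Whether the level or the library goes with the direction was not tested.

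The named genes were also read against IVP in the conceptuses of the other donor lines, SCNT Med and SCNT Low, with 10 arrays each. These comparisons share the IVP arrays, so the values only stand side by side. The differences of WNT5B for High, Med and Low were 1.02 ± 0.23, 0.72 ± 0.41 and 0.23 ± 0.46 (SE). ALG5 had differences of -0.64 ± 0.14, -0.51 ± 0.20 and -0.30 ± 0.20 (SE) in the same order. EED had -0.94 ± 0.38, -0.07 ± 0.44 and -0.15 ± 0.35 (SE). For ASF1A they were 0.81 ± 0.24, 0.45 ± 0.31 and 0.68 ± 0.27 (SE). EIF2S3 had differences of -0.65 ± 0.20, -0.97 ± 0.22 and -0.44 ± 0.27 (SE), and its spot was brighter than water on 9, 6 and 8 of 10 arrays. FN1 had -0.56 ± 0.35, 0.69 ± 0.33 and -0.63 ± 0.20 (SE), so its sign in SCNT Med was the opposite of that in the other lines. CCNE1 had -0.36 ± 0.20, -0.07 ± 0.21 and 0.53 ± 0.22 (SE), with the opposite sign in SCNT Low. LHFPL2 was brighter than water on 2 of 10 arrays in SCNT Med and 2 in SCNT Low, so its difference there is not given. With limma, 0 probes were called against IVP in SCNT Med or in SCNT Low, with 335 and 344 probes at an unadjusted p under 0.05, beside 1119 in SCNT High and 592 in SCNT High without session 3. The difference between these counts was not tested.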

How the data were processed

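Per the labels and the study's methods, amplified RNA of single conceptuses was labelled with a radioisotope and hybridised to nylon cDNA arrays, and the authors quantified the spots with ImaGene 5.5. They deposited the intensity of each spot and of its local background, without subtraction. The authors also deposited processed log2 values, used here as an alternative. Log2 intensities were centred on the array mean of the cDNA probes, and 30 controls and 154 unnamed spots were left out. The test was limma 3.58.1 under R 4.3.3 (lmFit, eBayes, Benjamini-Hochberg adjusted p under 0.10), checked on simulated data. A structural variance model stood in for the SMVar program of the methods, which was not used here. Control spots were compared by permutation (scipy 1.17.1, threshold 0.05). The members, lists and tests were chosen with earlier results of these data known. Named were the 16 genes of the primer table, the GAPDH and actin controls, and the 8 higher and 8 lower probes of smallest p brighter than water on at least 10 of 20 arrays. Sessions were formed here from the date recorded with each array, and a gap of more than a week between dates began a new session. Alternatives were normexp (offset 50), quantile normalization, other centrings, leaving out the 25% dimmest probes, marked spots or single arrays, all groups in one model, array weights, and session as a block. Centring on the controls, leaving out BC245 with BF188 or the 3 IVP arrays of session 2, and the block without session 3 were added after the data were examined.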

Additional observations from a re-analysis of the deposited data

Results flagged for a closer look

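Among the 30 named genes and probes and the 2 controls, 6 of 64 groups of 10 arrays had a single array whose distance to the next one exceeded the critical share of the range, where chance alone gives about 1 in 20. BC245 of SCNT High was the lowest for FN1, at -1.29 against 0.42 on the next array, and the highest for GAPDH, at 4.38 against 3.46. BF190 was the lowest IVP array for EED, at -0.41 against 2.10. For DFFA, BF153 was the highest IVP array, at 0.47 against -0.97. BC244 of SCNT High was the lowest for AW465147, at -0.0140 against 0.48, and the highest for BM362041, at 0.14 against -0.45. BC245, BC244 and BF190 belong to session 2.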

How the results depend on the processing

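The count of 0 called probes was the same with median centring, normexp, quantile normalization, the authors' processed values, the session as a fixed or random block, all groups in one model, without marked spots, dim probes or session 3, without BC245 and BF188, within session 1, without the 3 IVP arrays of session 2, and at thresholds of 0.05 and 0.20. It was 180 with array weights, 1 with the structural variance model, 51 within session 2 and 2694 with centring on GAPDH and actin. Leaving out 1 array at a time gave 0 to 19, and only the array without which 19 were called, BC242, gave any. The 1119 probes with an unadjusted p under 0.05 became 1866 with array weights, 3671 with centring on the controls, 457 within session 1, 544 within session 2, 592 without session 3 and 722 without it under a session block, and 910 to 1334 with 1 array left out. The actin difference of 0.34 was 0.28 without the 3 IVP arrays of session 2, past the threshold of 0.05 for the controls no longer. Other differences changed sign. Within session 1, C5orf13 went to -0.00336, PGAM5 to -0.10, BIN3 to -0.11 and MSH3 to -0.54, and within session 2 MYO6 went to 0.10. PLIN2 went to 0.0184 with array weights, 0.0503 without BC245 and BF188, and 0.0502 without the 3 arrays. APLP2 went to -0.36 with centring on the controls, -0.0172 with median centring, -0.0174 with a random block, -0.11 with a fixed block and also without session 3 under it, -0.13 without session 3, -0.00275 within session 1 and -0.27 within session 2. With 1 array left out, APLP2 spanned -0.0736 to 0.198 and PLIN2 -0.19 to 0.0304. The cause of these changes was not tested. No paired analysis was possible because the groups compared share no conceptus and the labels give no replicate numbers. The session holds 3 to 7 arrays a group, which limits each value within it.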
